A study of Mus musculus with 27 samples.

Results

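The results concern 9 enzymes of cholesterol synthesis, Hmgcs1, Mvk, Idi1, Fdps, Fdft1, Sqle, Lss, Cyp51 and Sc5d, in the livers of 27 mice. The members were all probe sets of the deposited value table that the array annotation maps to these genes. They came to 14 of 12488 probe sets and to 9 of the 8252 genes with a probe set of a single symbol. Liver RNA of 1 mouse was hybridised to each Affymetrix oligonucleotide array, with 9 mice in each of the groups Con, Veh and Dex. The meaning of these names is not stated in the labels used here, nor are the strain, sex, age, agent, dose or time, so the names are used as written. Mice are numbered 1 to 9 within a group as in the labels.

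Cholesterol is built from acetyl-CoA through mevalonate, isoprenoid diphosphates, squalene and lanosterol, and the liver is a main site of this synthesis in mammals. The early enzymes (Hmgcs1, Mvk, Idi1, Fdps) also feed the isoprenoids used for ubiquinone, dolichol and protein prenylation, whereas Fdft1, Sqle, Lss, Cyp51 and Sc5d belong to the branch that ends in sterols. Transcription of these genes is classically driven by the sterol-sensing factor SREBP-2, which is kept in the endoplasmic reticulum while sterols are plentiful and is released for cleavage when they run low.

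Of the 14 probe sets, 11 passed the filter on dim signals, an intensity above the array's median in at least 9 of the 27 arrays, and these 11 represent all 9 genes. The other 3 were an Mvk set above the array median on 8 arrays (95632_f_at), and a pair of Fdps sets above it on 1 (162217_r_at) and 5 arrays (162281_at). Without the filter their limma adjusted p lay between 0.149 and 0.980 over the 3 comparisons. Where a gene has several tested probe sets, the brightest stands for it, which is 99098_at for Fdps and 102768_i_at for Sc5d. Changes are differences of group means of log2 intensity from one limma fit over all 27 arrays, with their standard errors (SE). A change passed at a Benjamini-Hochberg adjusted p under 0.05 over the 6784 tested probe sets of the array.

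The deposited intensities were already scaled, with trimmed means between 100.1 and 100.2 and array medians between 17.6 and 33.3, and Spearman correlations between arrays of 0.833 to 0.938. The 3' to 5' ratio of the beta-actin control probes, which grows with RNA degradation, had a log2 mean of 0.947 ± 0.243 for Con, 1.27 ± 0.318 for Veh and 0.886 ± 0.169 for Dex (SD, n = 9 each). It was lower in Dex than in Veh (two-sided exact permutation test, p = 0.00152, adjusted 0.0137 over 9 tests). All 8 hepatocyte markers on the array were tested and none was at the floor on every array. Their summed intensity ranged from 49587 to 84816 in Con, from 53049 to 96472 in Veh and from 58330 to 134154 in Dex. Of the markers 4 of 8 passed the test as higher in Dex than in Con, against 3.26% of all tested probe sets. Among these was Tat (1.18, limma adjusted p = 0.00705), which is also on the list of glucocorticoid-induced genes read below. The macrophage and Kupffer cell markers had sums of 823 to 1660 (Con), 711.5 to 2440 (Veh) and 488 to 1299 (Dex). Of these markers 3 of 10 tested passed as lower in Dex than in Con, against 13.2% of all tested probe sets. The part of RNA quality and of cell types in the results below was not tested.

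Promoter sequences were matched by symbol in a RefSeq table (GRCm38.p6) for 6 of the 9 genes, Hmgcs1, Mvk, Idi1, Lss, Cyp51 and Sc5d. Fdps, Fdft1 and Sqle were not matched. The 250 bases before the transcription start were searched for all 6, and those of Lss and Mvk are not shown. They are shown for Hmgcs1, Idi1 and Cyp51, among the enzymes whose signals varied together, and for Sc5d, whose signal followed the others least. They read 5′ to 3′ on the gene's strand, and capitals mark matches to the sterol element TCACNCCAC and to the CCAAT box on either strand, where a CCAAT on the opposite strand appears as ATTGG.
Hmgcs1 (chr13:119690101-119690350, plus strand): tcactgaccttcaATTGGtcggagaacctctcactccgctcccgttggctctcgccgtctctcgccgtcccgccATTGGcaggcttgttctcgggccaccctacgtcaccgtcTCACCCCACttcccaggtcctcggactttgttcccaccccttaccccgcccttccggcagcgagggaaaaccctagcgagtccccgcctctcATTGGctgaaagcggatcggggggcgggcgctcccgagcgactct
Idi1 (chr13:8885356-8885605, plus strand): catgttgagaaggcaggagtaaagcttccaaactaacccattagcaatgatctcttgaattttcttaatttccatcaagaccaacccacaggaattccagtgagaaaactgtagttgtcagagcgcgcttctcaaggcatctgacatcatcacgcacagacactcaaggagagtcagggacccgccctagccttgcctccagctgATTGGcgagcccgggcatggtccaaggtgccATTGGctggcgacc
Cyp51 (chr5:4104698-4104947, minus strand): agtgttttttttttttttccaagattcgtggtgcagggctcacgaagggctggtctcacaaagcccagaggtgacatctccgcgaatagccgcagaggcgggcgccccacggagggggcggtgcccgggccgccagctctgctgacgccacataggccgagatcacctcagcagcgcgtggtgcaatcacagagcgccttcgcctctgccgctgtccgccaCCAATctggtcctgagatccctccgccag
Sc5d (chr9:42264301-42264550, minus strand): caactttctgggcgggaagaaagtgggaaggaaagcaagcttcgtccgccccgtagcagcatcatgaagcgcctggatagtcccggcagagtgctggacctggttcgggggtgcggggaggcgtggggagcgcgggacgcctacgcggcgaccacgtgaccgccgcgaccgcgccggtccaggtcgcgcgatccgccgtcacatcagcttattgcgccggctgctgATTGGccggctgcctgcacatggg

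The sterol element, a short form of the sequence that SREBP proteins bind, was found in 1 of the 6 windows, that of Hmgcs1, as TCACCCCAC from 137 to 129 bases before the start. It occurs in 346 of 32851 promoter windows of the same length, or 1.05%. SREBP sites that depart from this pattern were not searched for, so a window without a match may still hold such a site. A CCAAT box, the core of the site of the factor NF-Y, was found in 6 of 6 windows and in 33.8% of all windows. Hmgcs1 holds 3 of them, Mvk 5, Idi1 2, and Lss, Cyp51 and Sc5d 1 each. The nearest box lies 45 to 41 bases before the start in Hmgcs1, 14 to 10 in Idi1, 29 to 25 in Cyp51 and 24 to 20 in Sc5d. The GC box GGGCGG, the core of Sp1 sites, was likewise found in 6 of 6 windows and in 32.7% of all windows, searched on both strands. No match overlapped another, and a match describes letters only.

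The differences among the 9 enzymes that passed the test lay between Dex and Con, as higher for Fdps and as lower for Sc5d. Fdps was about 2 times as high in Dex livers as in Con livers (fold 1.98 and 2.02 by its 2 tested probe sets). Sc5d by 1 of its probe sets was at 0.404 times the Con level. By its second tested set Sc5d did not pass (limma adjusted p = 0.224). The other 7 enzymes did not pass the test in this comparison, and no enzyme passed it for Veh against Con or for Dex against Veh. Over all tested probe sets 16.4% passed for Dex against Con, 3.86% for Veh against Con and 0.265% for Dex against Veh. In Dex against Con, 1 of the 11 enzyme sets passed as lower, against 13.2% of all tested sets. As higher, 2 of the 11 passed, against 3.26%. In whole tissue, fewer cells of a type and less RNA per cell cannot be told apart.

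Hmgcs1, which makes HMG-CoA ahead of the rate-limiting reductase, had an intensity of 128 to 483 in Con (lowest to highest, median 319.6), 227 to 442 in Veh (median 343) and 94.3 to 1052 in Dex (median 172). The Dex mice fell apart into low and high values on both sides of the other groups. Dex 1, 2, 3, 4 and 7 lay between 94.3 and 172, below every Veh mouse, while Dex 5, 6 and 8 lay at 641, 1052 and 565, above every Con and every Veh mouse. As group means, Dex minus Con was -0.24 ± 0.34 on the log2 scale (95% interval -0.94 to 0.46, limma adjusted p = 0.672) and Dex minus Veh -0.40 ± 0.34 (0.589). Without Dex 1, 2 and 3 the difference from Con turned to 0.33 (adjusted p = 0.550) and that from Veh to 0.17 (0.860).

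Mvk phosphorylates mevalonate. Its tested set gave 117 to 203 in Con (median 135), 105.5 to 185 in Veh (median 151) and 122 to 385 in Dex (median 213). In 7 of 9 Dex mice it exceeded the median of Con, and likewise that of Veh, with Dex 1 and Dex 3 as the low mice, and the groups overlapped. The Dex mean was 0.52 ± 0.19 above Con (limma adjusted p = 0.0573) and 0.55 ± 0.19 above Veh (unadjusted p = 0.00716, adjusted 0.162), and neither passed. Veh and Con differed by -0.03 ± 0.19 (0.945). Against Con it did pass when Con 8, Con 9, Dex 1, Dex 3 or Dex 6 was left out (changes of 0.57 to 0.62, adjusted p between 0.0237 and 0.0444), after quantile normalization (0.69, 0.0249) and without Dex 1, 2 and 3 together (0.70, 0.0292). The dim Mvk set 95632_f_at, fitted by limma without the filter, differed by 0.14 ± 0.48 between Dex and Con (adjusted p = 0.909). Between Dex and Veh it differed by 0.10 ± 0.48 (0.961).

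Idi1 converts isopentenyl to dimethylallyl diphosphate, the pair of building blocks that Fdps joins. It was measured at 596 to 1158 in Con (median 854), 699 to 1553 in Veh (median 982) and 544 to 1894 in Dex (median 1303). Dex 5 and Dex 6, at 1861 and 1894, were above all other 25 mice and Dex 3, at 544, was below them all. The Dex mean was 0.48 ± 0.20 above Con (adjusted p = 0.0902) with 8 of 9 mice above the Con median, and the Veh mean was 0.25 ± 0.20 above Con (0.452). Idi1 passed the test against Con without Dex 3 (0.62 ± 0.17, adjusted p = 0.0160) and without Dex 1, 2 and 3 together (0.67 ± 0.19, 0.0340).

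Fdps makes farnesyl diphosphate, the branch point between sterols and prenylated products. By the set 99098_at it ranged from 1556 to 3387 in Con (median 2000.3), from 1642 to 4523 in Veh (median 2467) and from 1985 to 10814 in Dex (median 3875). The mice Dex 5 (10814), Dex 4 (7723) and Dex 6 (5335) were above every Con and Veh mouse, and Dex 8 (1985) stayed below the Con median, so the groups overlapped. Fdps rose by 0.98 ± 0.25 from Con to Dex (SE, 9 mice each, limma adjusted p = 0.00966, 95% interval 0.47 to 1.49), and 8 of 9 Dex mice exceeded the Con median. Dex exceeded Veh by 0.69 ± 0.25 (unadjusted p = 0.00937, adjusted 0.179) and Veh exceeded Con by 0.29 ± 0.25 (0.486), and these did not pass.

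The second tested Fdps set, 160424_f_at, is of a type whose probes can also read related sequences. It ranged from 833 to 2018 in Con (median 1151), from 691 to 2537 in Veh (median 1464) and from 1295 to 7113 in Dex (median 1639). The same mice led it, Dex 5 at 7113, Dex 4 at 4732 and Dex 6 at 3480, and all 9 Dex mice exceeded the Con median. It rose by 1.02 ± 0.29 from Con to Dex (limma adjusted p = 0.0181), while the Dex and Veh means differed by 0.66 ± 0.29 (0.267) and the Veh and Con means by 0.36 ± 0.29 (0.464). With group means removed, the 2 sets correlated across the 27 arrays with r = 0.87 (rho = 0.81, and r = 0.82 without the 2 arrays farthest from the median). The call of 99098_at held in all 15 alternative settings and in all 27 fits that leave out 1 array (adjusted p up to 0.0473). That of 160424_f_at was lost without Dex 5 and Dex 6 (0.70, adjusted p = 0.0654) and after quantile normalization (0.78, 0.0722).

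Fdft1 joins 2 farnesyl units into squalene and is the first enzyme committed to sterols. It ranged from 292 to 596 in Con (median 372), from 299 to 845 in Veh (median 377) and from 277 to 1405 in Dex (median 457), with Dex 5 at 1405 and Dex 6 at 847 above every other mouse. The remaining Dex mice lay within the span of the Con mice apart from Dex 3 at 277, just below it. Dex minus Con was 0.26 ± 0.25 (95% interval -0.25 to 0.77, adjusted p = 0.496), and it was -0.07 without Dex 5 and Dex 6.

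Sqle, the squalene epoxidase, ranged from 134 to 456 in Con (median 299), from 213 to 420 in Veh (median 332) and from 202 to 1214 in Dex (median 309). Dex 5 (1214), Dex 2 (795) and Dex 6 (636) exceeded all Con and Veh mice, and the other 6 Dex mice lay between 202 and 353. Dex exceeded Con by 0.52 ± 0.27 (adjusted p = 0.183) and Veh by 0.29 ± 0.27 (0.618). Dex 2, a mouse with low Hmgcs1 and Sc5d, was thus among the highest for Sqle, as it was for Mvk at 269.7.

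Lss closes squalene epoxide into lanosterol. It ranged from 68.8 to 213 in Con (median 118), from 71.7 to 255.5 in Veh (median 162) and from 62.9 to 522 in Dex (median 108). Again Dex 5 (522) and Dex 6 (464) stood above all other mice, whereas the remaining Dex mice lay between 62.9 and 214, and 5 of 9 Dex mice lay below the Con median. The Dex mean differed from Con by 0.35 ± 0.34 (adjusted p = 0.501) and from Veh by 0.10 ± 0.34 (0.912), and without Dex 5 and Dex 6 both differences were below 0 (-0.12 and -0.37).

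Cyp51 removes the 14-alpha methyl group of lanosterol. It ranged from 33.4 to 151 in Con (median 103), from 65.1 to 134.5 in Veh (median 97.4) and from 50.5 to 261 in Dex (median 115.5). The 3 highest of all mice were Dex 5 (261), Dex 6 (218) and Dex 4 (166), and the lowest was Con 2 (33.4). Dex exceeded Con by 0.30 ± 0.27 (adjusted p = 0.466) and Veh by 0.31 ± 0.27 (0.584). The Veh and Con means were 6.58 and 6.60 on the log2 scale, a difference of -0.01 ± 0.27 whose sign turned under 5 of 15 alternatives, quantile normalization among them, so no direction is read from it.

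Sc5d, a desaturase of the last steps before cholesterol, was the one enzyme that passed the test as lower, by 1 of its 2 tested sets. By the set 102768_i_at it ranged from 65.4 to 255 in Con (median 123), from 36.6 to 155 in Veh (median 74.5) and from 9.6 to 156 in Dex (median 64.8). The Dex mice were uneven, with Dex 2 at 9.6, Dex 1 at 20.8, Dex 4 at 31.7, Dex 3 at 49.5 and Dex 5 at 64.8 below every Con mouse, and Dex 6, 8 and 9 between 118 and 156, well inside the Con range. Sc5d fell by 1.31 ± 0.39 on the log2 scale from Con to Dex (limma adjusted p = 0.0238, 95% interval -2.11 to -0.50), with 7 of 9 Dex mice below the Con median. In Veh, 8 of 9 mice lay below the Con median, and the difference of -0.82 ± 0.39 did not pass (unadjusted p = 0.0470, adjusted 0.206).

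The second Sc5d set, 102769_f_at, moved with the first between mice (r = 0.90, rho = 0.82 over 27 arrays with group means removed, r = 0.82 without the 2 farthest arrays). It ranged from 49.8 to 182 in Con (median 103), from 35.1 to 102 in Veh (median 79.7) and from 8.6 to 191.5 in Dex (median 69.3). Its differences had the same sign and were smaller, -0.69 ± 0.39 for Dex against Con (adjusted p = 0.224) and -0.32 ± 0.39 for Veh against Con (0.634), with every Veh mouse under the median of Con. The 2 sets therefore differ in the call. The call of 102768_i_at was also lost without Dex 1 (-1.13, adjusted p = 0.0550) or Dex 2 (-0.99, 0.0502), without Dex 1, 2 and 3 together (-0.64, 0.218) and after quantile normalization (-1.05, 0.0591).

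**Figure D1:**
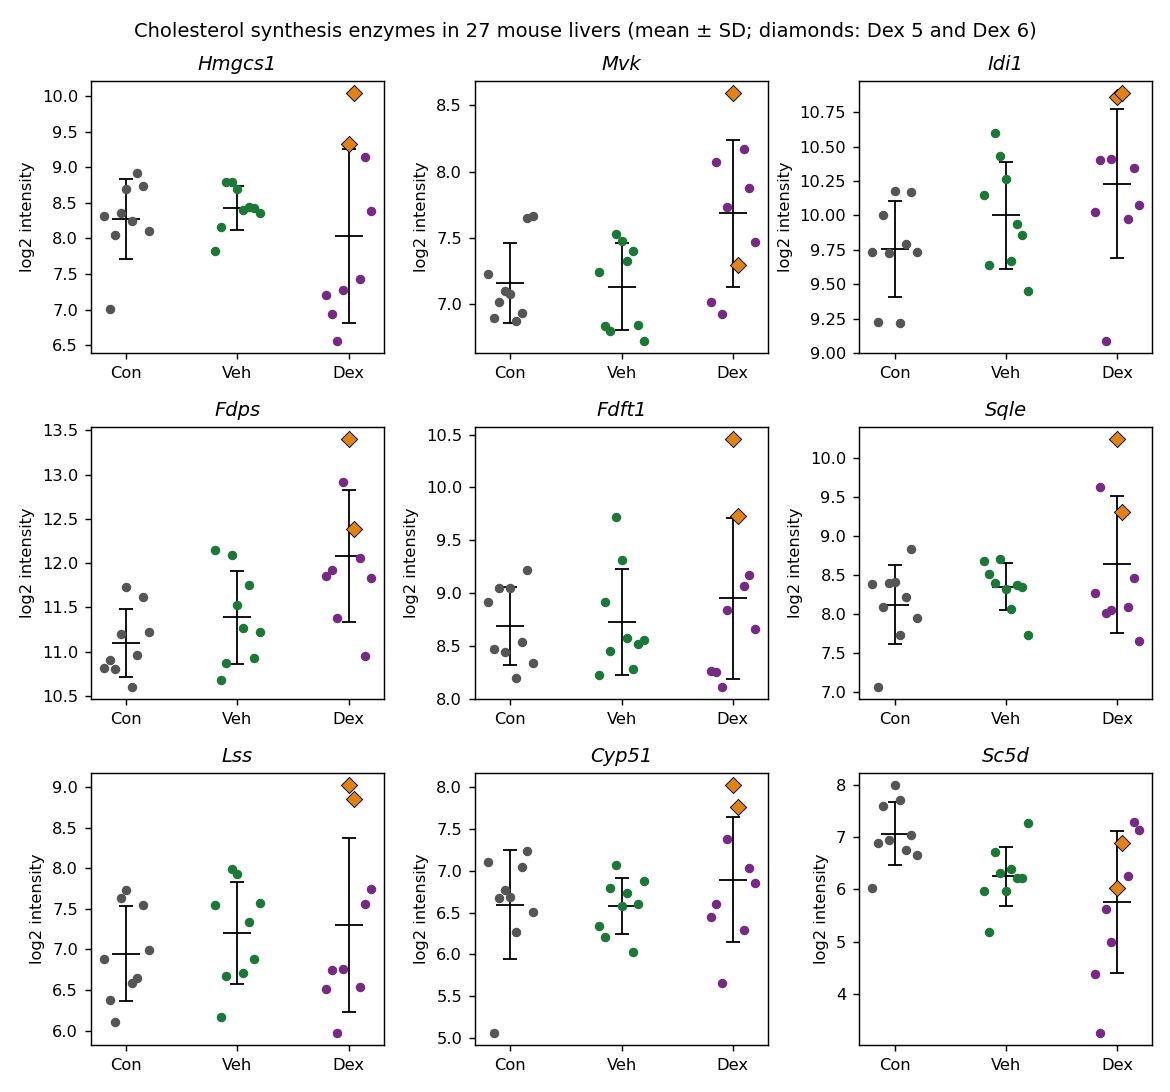
Log2 intensity of each of the 9 enzymes (vertical axes, each with its own scale) in the 9 mice of the groups Con, Veh and Dex (horizontal axes), 1 point per mouse, with the group mean and SD as bars and Dex 5 and Dex 6 as diamonds. The diamonds lie above every Con and Veh mouse for Hmgcs1, Idi1, Fdps, Fdft1, Sqle, Lss and Cyp51, while for Mvk and Sc5d Dex 6 lies inside the Con range.

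For Veh against Con, 0 of the 11 tested probe sets passed the test (limma, adjusted p between 0.206 and 0.979), where 3.86% of all 6784 tested probe sets did (1.19% higher and 2.67% lower). At an unadjusted p under 0.05 stood 1 of the 11, the Sc5d set 102768_i_at, against 23.6% of all sets. The Veh mean was the higher one for 7 sets and the lower one for 4, of which Mvk and Cyp51 turned to the higher side after quantile normalization (0.13 and 0.18). By gene, the median difference was 0.16 over the 9 enzymes and -0.18 over all 5200 tested genes, of which 31.2% were higher in Veh. Over all probe sets the median was -0.19, and -0.02 after quantile normalization, which gives every array the same distribution. Among the mice, Veh 4 was the highest Veh mouse for 6 of the 9 enzymes.

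For Dex against Veh, 0 of the 11 sets passed (limma, adjusted p between 0.162 and 0.912), against 0.265% of all tested sets (0.0442% higher and 0.221% lower). An unadjusted p under 0.05 was reached by 3 sets, those of Mvk and both of Fdps, against 15.2% of all sets. The Dex mean was higher for 8 sets and lower for 3, those of Hmgcs1 and Sc5d, and the median difference by gene was 0.23 against -0.05 over all genes.

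Against Con, 3 of 11 sets passed in Dex, the Fdps pair as higher and 1 Sc5d set as lower, against 16.4% of all tested sets (3.26% higher and 13.2% lower). An unadjusted p under 0.05 was reached by 5 of the 11 and by 31.5% of all sets. By gene, the median difference was 0.35 over the 9 enzymes against -0.21 over all genes, and 7 of 9 enzymes had the higher mean in Dex against 32.1% of all genes. In no comparison did the groups of a member separate without overlap, which 0.413%, 0.0295% and 0.767% of all sets did for Veh against Con, Dex against Veh and Dex against Con. The 3 comparisons share arrays, so their values are given side by side and not counted as separate evidence. The count of 3 was 5 without Dex 3, when Mvk and Idi1 were added, and 4 without Dex 1, 2 and 3, when these 2 and the Fdps pair passed. It was 2 after quantile normalization (Mvk and the Fdps set 99098_at), 2 without Dex 5 and 6 (99098_at and the Sc5d set 102768_i_at), and 1 with the array median as a covariate (99098_at).

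**Figure D2:**
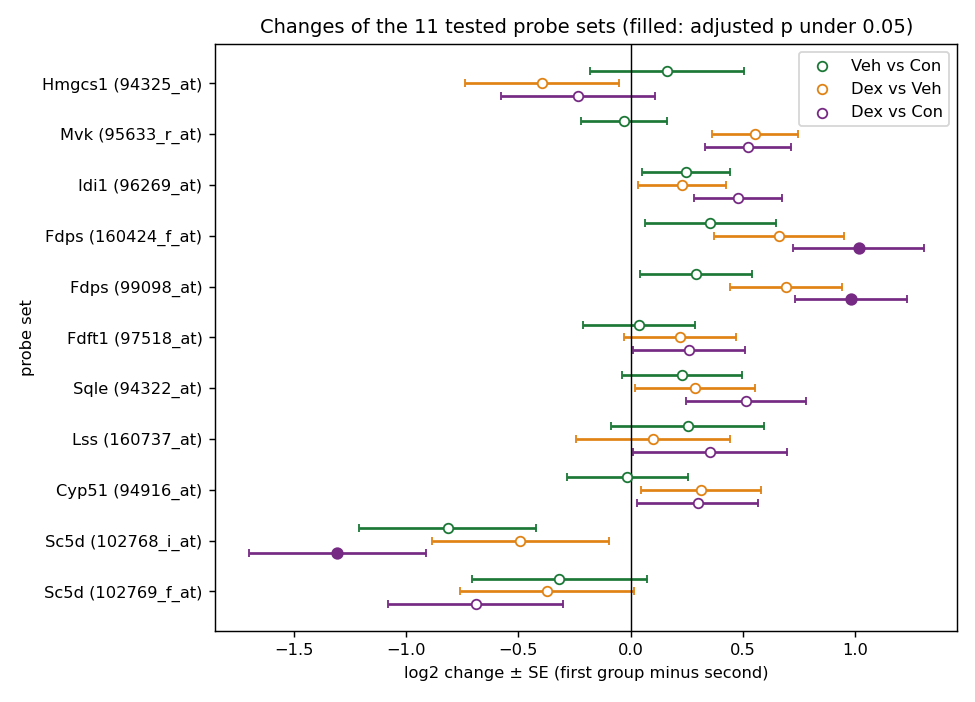
Log2 change with its SE (horizontal axis, first group minus second) of the 11 tested probe sets (vertical axis) in the 3 comparisons, where filled points had a limma adjusted p under 0.05. The 3 filled points are those of Dex against Con for the 2 Fdps sets, at 0.98 and 1.02, and for the Sc5d set 102768_i_at, at -1.31.

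Within the Dex group several enzymes were high together in Dex 5 and Dex 6 and low together in Dex 3. The mean log2 difference from Con over the 9 enzymes ran from -0.65 to 0.48 in Con mice (median -0.03), from -0.38 to 0.55 in Veh mice (median 0.01) and from -0.71 to 1.36 in Dex mice (median 0.07). Dex 5 had 1.36 and Dex 6 had 1.05, followed by Dex 8 at 0.46, and the lowest were Dex 3 at -0.71, Dex 1 at -0.41 and Dex 2 at -0.21. Without Sc5d, Dex 3 had -0.61, Dex 1 had -0.13 and Dex 2 had 0.24. Dex 5 was the highest Dex mouse for 6 of the 9 enzymes and among the 2 highest of all 27 mice for 8 of them, and Dex 6 was among these 2 for 5. At the other end, Dex 3 was the lowest Dex mouse for 6 enzymes. The group medians of the mean over the 9 enzymes lay close together, and its highest values were those of Dex 5 and Dex 6. At the low end Con 2, at -0.65, was close to Dex 3. Without Sc5d, Con 2 was the lowest of all 27 mice at -0.70. The medians without Sc5d were 0.05 in Con, 0.09 in Veh and 0.26 in Dex.

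Such spread was not particular to these genes. The SD of the Dex mice over that of the Con mice ranged from 1.15 for Cyp51 to 2.22 for Sc5d, and its median over all tested probe sets was 1.47. Only Cyp51 lay below that median. The ratio of Cyp51 exceeded 29.2% of all tested sets and that of Sc5d 80.7%, with the other enzymes in between. In log2 intensity, the SD of Hmgcs1 came to 0.561 for Con, 0.310 for Veh and 1.23 for Dex, that of Lss 0.583, 0.627 and 1.07, and that of Idi1 0.351, 0.388 and 0.541. Over all tested sets the median SDs of the groups were 0.375, 0.469 and 0.566. Hmgcs1, Sqle and Cyp51 varied less in Veh than in Con, at 0.553, 0.598 and 0.516 times the Con SD.

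**Figure D3:**
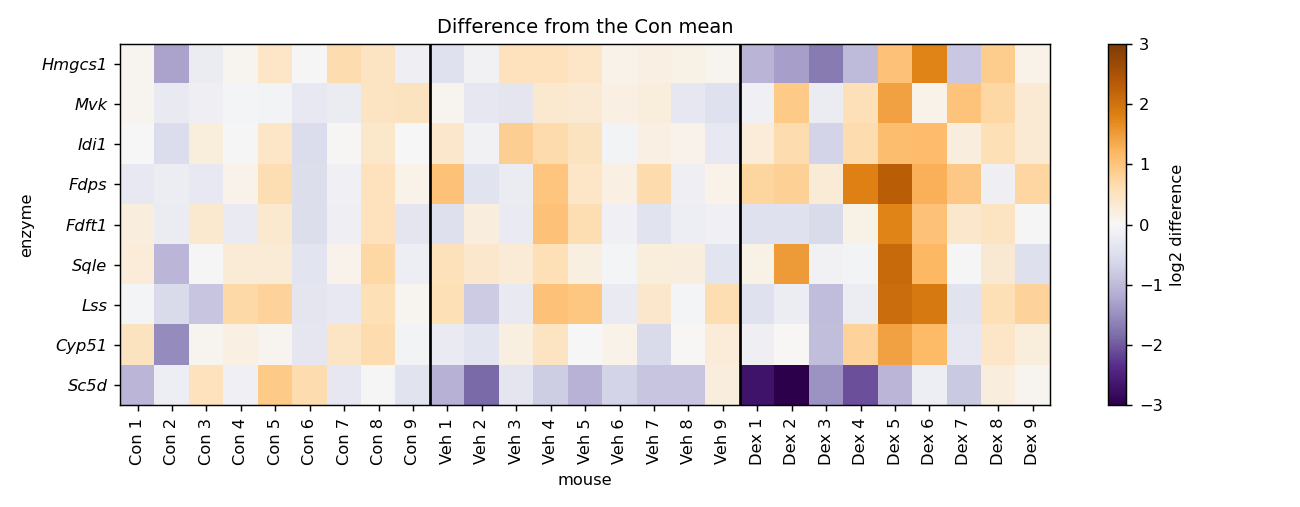
Log2 difference from the Con mean (colour, from -3 to 3) of the 9 enzymes (rows) in each of the 27 mice (columns, with black lines between the groups). The columns of Dex 5 and Dex 6 are above the Con mean for 8 of 9 enzymes each, with Sc5d as the exception, and the Sc5d row is lowest in Dex 1, Dex 2 and Dex 4.

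Other gene lists were read in the same mice. A list of genes that glucocorticoids induce in liver had mean log2 differences from Con of 3.13, 2.74 and 3.004 in Dex 1, Dex 2 and Dex 3, 1.19 in Dex 4, and 0.02 and 0.19 in Dex 5 and Dex 6, against -0.68 to 0.92 in Con and -0.65 to 0.74 in Veh. The 4 mice with the highest values on that list were low for Hmgcs1 and Sc5d, but not for every enzyme. Dex 4 was above every Con and Veh mouse for Fdps by 99098_at (7723) and for Cyp51 (166). Dex 2 was above them for Sqle (795) and Mvk (269.7). Without Sc5d the enzyme mean was 0.24 in Dex 2 and 0.34 in Dex 4, and -0.13 in Dex 1 and -0.61 in Dex 3. The 2 mice with the highest enzyme means had list values inside the Con range. Dex 7, Dex 8 and Dex 9, at 0.16, 0.63 and 0.20 on the list, were inside the Con range as well. Their enzyme means were 0.02, 0.46 and 0.23. Dex 7 had an Hmgcs1 intensity of 172, below every Veh mouse and above Con 2 at 128. Dex 5 had an Sc5d intensity of 64.8 by 102768_i_at, just below the lowest Con mouse at 65.4. By 102769_f_at it had 81.1, inside the Con range. Fatty acid synthesis genes stood at 0.83 in Dex 5 and 1.45 in Dex 6, at -1.11 in Dex 2, at 0.79 in Dex 1 and 0.75 in Dex 9, between -0.55 and 0.65 in Con and between 0.09 and 1.08 in Veh. The enzyme mean of Dex 1 was -0.41, and -0.13 without Sc5d. Macrophage markers stood at -0.996 in Dex 5 and -1.28 in Dex 6, where the Dex mice ranged from -1.28 to -0.02, the Veh mice from -1.15 to 0.61 and the Con mice from -0.59 to 0.43. The hepatocyte list shares Tat with the glucocorticoid list, so these measures are not separate. Hepatocyte markers stood at 0.82 in Dex 1, 1.09 in Dex 2, 0.61 in Dex 3 and 0.77 in Dex 4. These values were above the Con range of -0.20 to 0.43. The other Dex mice lay inside that range, with 0.24 in Dex 5 and -0.01 in Dex 6. The part of these measures in the enzyme levels was not tested.

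With group means removed, 8 of the 9 enzymes followed each other across the 27 arrays. The correlation of each enzyme with the mean of the other 8 was 0.83 for Lss, 0.79 for Fdft1, 0.78 for Idi1 and Cyp51, 0.76 for Hmgcs1, 0.62 for Sqle, 0.55 for Fdps and 0.51 for Mvk, and 0.19 for Sc5d (Pearson's r). The rank correlations ran in a similar range, from 0.73 for Lss to 0.35 for Mvk, with 0.13 for Sc5d. All arrays share the tissue and the authors' scaling, so these values are a description without a test. Against the same means, the median r over all 6784 tested probe sets lay between 0.00 and 0.04, and the 8 enzymes other than Sc5d exceeded between 98.6% and 99.9% of all sets, where Sc5d exceeded 81.7%. Leaving out the 2 arrays farthest from the median of the reference lowered r to 0.74 for Lss, 0.42 for Sqle and 0.33 for Fdps.

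Among the 36 pairs of enzymes the median r was 0.53 (rho = 0.47), and 33 pairs were above 0. Hmgcs1 and Cyp51 had the highest pair value, 0.77, followed by Hmgcs1 with Lss at 0.76 and Idi1 with Cyp51 at 0.73. Fdps, the enzyme with the rise in Dex, was most like Lss (0.62) and least like Sc5d (-0.06) and Hmgcs1 (0.21). Sc5d was below 0 with Sqle (-0.23), Mvk (-0.09) and Fdps (-0.06), yet reached 0.56 with Hmgcs1 and 0.40 with Lss. With Dex 5 and Dex 6 dropped the median over the pairs was 0.46. The Dex means removed beforehand still included Dex 5 and Dex 6. This value therefore cannot show whether the other 25 mice moved together on their own. Within groups, the r of Idi1 with the mean of the others came to 0.88 for Con, 0.54 for Veh and 0.84 for Dex, and that of Sqle 0.92, 0.27 and 0.59.

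**Figure D4:**
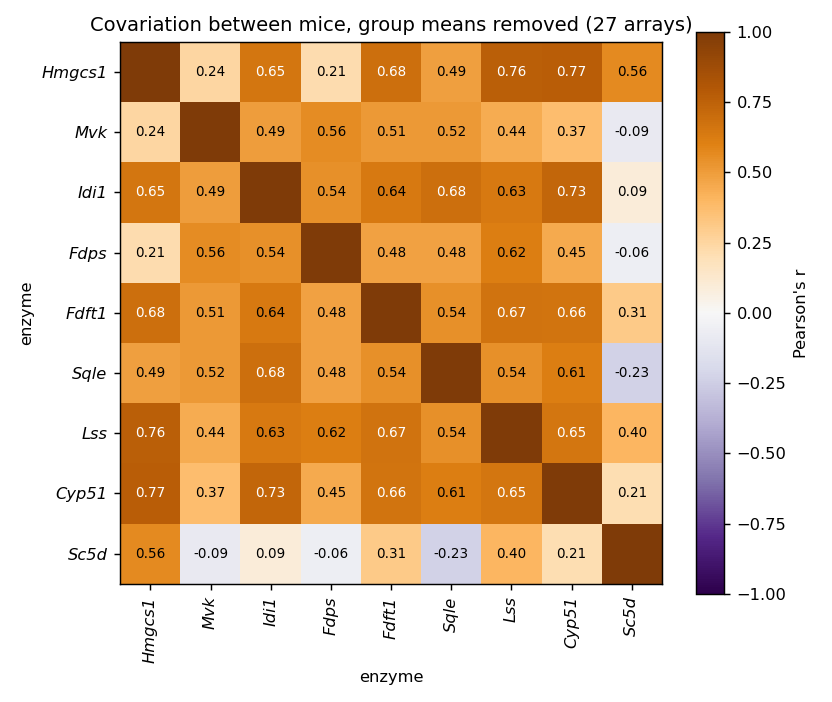
Pearson's r between the enzymes (rows and columns) over 27 arrays after the group means were removed, as colour from -1 to 1 and printed in each cell. The block of Hmgcs1, Idi1, Fdft1, Lss and Cyp51 lies between 0.63 and 0.77, and the row of Sc5d runs from -0.23 to 0.56.

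The genes outside the 9 whose log2 intensity was most like the enzyme mean, with group means removed, were taken as the 5 with the highest r among 5191 genes. They were Gpam, a glycerol-3-phosphate acyltransferase (r = 0.78, rho = 0.68), Erg28, a protein of the endoplasmic reticulum that holds sterol enzymes (0.78 and 0.74), Mvd, the mevalonate diphosphate decarboxylase (0.77 and 0.75), Nsdhl, a sterol dehydrogenase, by the set 98631_g_at (0.73 and 0.83), and 6430706D22Rik (0.69 and 0.70). Without Dex 3 and Dex 5, the arrays farthest from the median, r lay between 0.62 and 0.74.

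Of 16 further genes of cholesterol synthesis in the list used, 9 were on the array under a single symbol and all 9 were tested; the others were not analysed here. For Veh against Con 1 of 9 passed, Ebp, the sterol isomerase, as higher, where 1.19% of all tested sets did so. Ebp ranged from 279 to 449 in Con (median 322), from 388 to 720.5 in Veh (median 491) and from 295 to 674.5 in Dex (median 454). Every Veh mouse exceeded the Con median, and Ebp rose by 0.54 ± 0.15 (limma adjusted p = 0.0378), while the Dex difference from Con of 0.40 ± 0.15 did not pass (0.0605). The median over the 9 genes was -0.03 for Veh against Con, -0.12 for Dex against Veh and 0.18 for Dex against Con, beside -0.18, -0.05 and -0.21 over all genes.

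Dex 5 or Dex 6 was the highest Dex mouse for Mvd, Msmo1, Dhcr7, Nsdhl and Erg28, whereas Ebp was highest in Dex 1, Hsd17b7 and Lbr in Dex 8, and Tm7sf2 in Dex 1 or Dex 9, depending on the set. Mvd ranged from 11.4 to 94.5 in Con and from 8.1 to 403 in Dex, highest in Dex 6. Msmo1, a sterol methyl oxidase, ranged from 211 to 541 in Con and from 126.5 to 918 in Dex, again highest in Dex 6. Dhcr7, the last reductase of the pathway, reached 331 in Dex 5 against 57.4 to 163 in Con. Their group differences between Dex and Con, of 0.49 ± 0.59 for Mvd, -0.30 ± 0.32 for Msmo1 and 0.18 ± 0.32 for Dhcr7, did not pass (adjusted p = 0.600, 0.547 and 0.733).

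Of the genes that sense sterols and take them up, 7 were tested and 0 passed in any comparison (limma, lowest adjusted p 0.0777). At an unadjusted p under 0.05 stood 1 of the 7 for Veh against Con, 0 for Dex against Veh and 2 for Dex against Con. Over all tested sets 23.6%, 15.2% and 31.5% did. Srebf1, a relative of SREBP-2 that drives fatty acid synthesis, differed by 0.31 ± 0.29 between Veh and Con (adjusted p = 0.529) and by -0.52 ± 0.29 between Dex and Veh (0.396). Insig1, which retains SREBP in the endoplasmic reticulum, was too dim to be tested, with medians of 3.3, 3.8 and 4.5 in Con, Veh and Dex.

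Among 8 tested genes of cholesterol disposal, 2 passed as lower in Dex than in Con and 1 as lower in Veh than in Con. Over all tested sets 13.2% and 2.67% passed as lower in these comparisons. Abca1, which exports cholesterol to apolipoprotein A-I, ranged from 176 to 358 in Con (median 224) and from 51.0 to 170.5 in Dex (median 105). These groups did not overlap, as for 0.767% of all tested sets. Abca1 fell by 1.17 ± 0.23 on the log2 scale from Con to Dex (limma adjusted p = 0.00165). Cyp7a1, the rate-limiting enzyme of bile acid synthesis, ranged from 27.1 to 211 in Con (median 127), from 14.3 to 101 in Veh (median 33.8) and from 12.0 to 319.8 in Dex (median 82.6). All 9 Veh mice were below its Con median, and the difference of -1.26 ± 0.49 did not pass (adjusted p = 0.119). Cyp7b1, an oxysterol hydroxylase, passed as lower in both, and its set 92898_at had medians of 1165 in Con, 125 in Veh and 183 in Dex.

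In the non-sterol branch 6 genes were tested and 1 passed, Icmt, which methylates prenylated proteins and fell by 1.38 ± 0.29 from Con to Veh (adjusted p = 0.00925). Over all tested sets 2.67% passed as lower in this comparison. Fatty acid synthesis, fed by the same acetyl-CoA, had 12 tested genes, of which 12 had the higher mean in Veh than in Con, 0 passed (limma) and 3 had an unadjusted p under 0.05. Of all tested genes 31.2% had the higher mean in Veh, and 23.6% of all tested sets had such a p. Fasn, the fatty acid synthase, had a difference of 1.20 ± 0.39 between Veh and Con (adjusted p = 0.0723). The elongase Elovl6 rose from Con to Dex by its set 103665_at (1.59 ± 0.51, adjusted p = 0.0315) and did not pass by 94418_at (1.09 ± 0.47, 0.109). By 103665_at the Veh mean was also above that of Con, without passing (1.69 ± 0.51, adjusted p = 0.0558). All 9 Veh mice, at 218 to 840.5, were above every Con mouse, where 0.413% of all tested sets did not overlap in this comparison. Dex minus Veh for Elovl6 by this set was -0.09 ± 0.51 (0.953). Its Dex mice spanned 40.7 in Dex 2 to 2738 in Dex 6 by the first set, against 55.1 to 170.1 in Con.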

How the data were processed

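The authors deposited 1 linear intensity per probe set and array for 27 arrays, 9 per group, with 1 mouse liver per array per the labels. Per the labels, RNA was purified with Trizol and RNeasy and looked at on a Bioanalyzer. Summarisation software and scaling target: not given in the sources used here. The 2% trimmed means lay near 100 on every array, so the deposited scaling was kept. A floor of 2.6 (the 10th percentile of all values above 0) was set before log2. The 66 control probes were left out. Array annotation gave 1 symbol for 10855 probe sets, several for 396 and none for 1237.

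Group means were fitted with limma 3.58.1 in R 4.3.3 (lmFit, eBayes with a mean trend, 24 residual degrees of freedom, two-sided, Benjamini-Hochberg over 6784 probe sets). P-values measure the spread between mice within groups. Precision is limited by the number of arrays. Correlations used log2 intensities minus group means. Alternatives were quantile normalization, other floors and filters, a replicate block, no mean trend, array weights, fits of only the compared groups, quality measures as covariates, and sets of arrays left out. The genes named were the 9 enzymes, listed pathway genes that passed the test or were set to be named, and the 5 genes most like the enzymes. The enzymes and lists were chosen with earlier results of these data known. The scripts were tested on simulated data.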

Additional observations from a re-analysis of the deposited data

Results flagged for a closer look

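In the 33 sets of 9 values examined (11 tested probe sets in 3 groups), 3 had a single mouse far from the others, with a gap to its neighbour above 0.493 of the group's range. Chance alone marks about 1 in 20 such sets. Hmgcs1 was lowest in Con 2, at a log2 intensity of 7.002 against 8.04 in the next Con mouse, a gap of 0.543 of the range. Cyp51 was lowest in the same mouse, at 5.06 against 6.26 in the next, a gap of 0.551. Sc5d by the set 102769_f_at was lowest in Veh 2, at 5.13 against 6.08 in the next Veh mouse, a gap of 0.617. None of these 3 values belongs to a Dex mouse.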

How the results depend on the processing

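The enzymes were refitted under 15 alternative settings and with each of the 27 arrays left out. The count of enzyme probe sets past the test was 0 for Veh against Con, except 1 when only the 2 groups compared were fitted (Sc5d 102768_i_at, limma adjusted p = 0.0438), and 0 for Dex against Veh in every setting. For Dex against Con it was 3, except 1 with the array median as a covariate, 2 after quantile normalization, 2 without Dex 5 and 6, and 4 without Dex 1, 2 and 3. It was between 2 and 5 when 1 array was left out, and 5 without Dex 3. The setting without Dex 5 and 6 was chosen after seeing the data.

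Of the 495 values of single probe sets under the 15 settings, 463 kept their direction and their side of the threshold, 4 passed newly, 6 no longer passed, and 22 changed sign, none of them past the threshold. For Veh against Con, Mvk was 0.13 and Cyp51 0.18 after quantile normalization. The same pair was 0.13 and 0.077 when the fit held the beta-actin ratio, and 0.043 and 0.021 when it held the Gapdh ratio. With the array median as a covariate Fdft1 was -0.048, Cyp51 0.088 and Sc5d 102769_f_at 0.24, and without Veh 2, 4, 5 and 7 Fdft1 was -0.22 and Cyp51 0.074. For Dex against Veh, Lss was -0.25 in the beta-actin fit and -0.21 in the Gapdh fit. Without Dex 1, 2 and 3, Hmgcs1 was 0.17, Sc5d 0.18 (102768_i_at) and 0.25 (102769_f_at) against Veh, and Hmgcs1 0.33 against Con. Without Dex 5 and 6, Fdft1 was -0.11, Sqle -0.039 and Lss -0.37 against Veh, and Fdft1 -0.066 and Lss -0.12 against Con. With 1 array left out, the values for Veh against Con ran from -0.077 to 0.036 for Mvk, from -0.085 to 0.11 for Fdft1 and from -0.21 to 0.066 for Cyp51, and for Dex against Veh from -0.12 to 0.27 for Lss.

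In Dex against Con, the Fdps set 99098_at passed in 15 of 15 settings (0.70 to 1.16) and 27 of 27 fits without 1 array (0.82 to 1.12). The set 160424_f_at passed in 12 and 27 of these and the Sc5d set 102768_i_at in 12 and 25. With the array median as a covariate these last 2 did not pass (0.83, adjusted p = 0.0799, and -0.96, 0.107). The cause of these shifts was not tested.

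Over all probe sets, counts for Veh against Con, Dex against Veh and Dex against Con were 262, 18 and 1115. They were 85, 15 and 658 after quantile normalization, when 52.9%, 26.7% and 29.3% of the calls were higher in place of 30.9%, 16.7% and 19.8%. Array weights gave 1158, 4 and 1084, only the compared groups 656, 1 and 977, the beta-actin ratio 33, 1 and 1089, the Gapdh ratio 75, 14 and 1160, the array median 21, 111 and 470, and no filter 116, 7 and 842. No mean trend gave 188, 5 and 1058. Without Dex 1, 2 and 3 the counts were 453, 1 and 405, without Veh 2, 4, 5 and 7 they were 3, 1 and 1121, and without Dex 5 and 6 they were 271, 80 and 1178. With 1 array left out they ran from 85 to 586, from 4 to 124 and from 785 to 1488.

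The labels do not state whether the replicate numbers pair the arrays. Over the whole array, same-numbered arrays deviated together with r from -0.20 to 0.19, above 0.1 in 4 of 27 pairs, and 5 of 27 correlated best with their own number. With the number as a block the enzyme counts were 0, 0 and 3, no enzyme call changed, and over all probe sets 311, 3 and 1120 passed. In Dex against Con the block changed the SE from 0.39 to 0.32 for Sc5d (102768_i_at) and from 0.34 to 0.27 for Lss. The SE rose slightly for Idi1 (0.196 to 0.202) and Sqle (0.267 to 0.268).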

Other observations

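The Con mice, which had the narrowest spread over all genes, also differed from each other in the enzymes. Con 2 was below the Con mean for all 9 enzymes and was the lowest Con mouse for 3 of them, with a mean difference of -0.65 on the log2 scale. Con 5 and Con 8 were above the Con mean for 8 enzymes each, with means of 0.43 and 0.48, and were the highest Con mice for 4 and 3 enzymes. Con 6 was the lowest Con mouse for 4 enzymes and above the Con mean for 1.

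Clock genes, a list in which 12 of 17 genes were tested, had 0 calls in any of the 3 comparisons (limma, lowest adjusted p 0.144, 0.302 and 0.189 for Veh against Con, Dex against Veh and Dex against Con). Over all tested sets 3.86%, 0.265% and 16.4% passed in these. The mean difference of the clock genes from Con ran from -0.77 to 0.50 in Con mice, from -0.63 to 0.41 in Veh mice and from -0.56 to 0.18 in Dex mice. The dim Fdps set 162281_at, left out by the filter, had median intensities of 5.8 for Con, 4.9 for Veh and 11 for Dex and, without the filter, a difference of 1.23 ± 0.51 between Dex and Con (adjusted p = 0.149).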
